A study of Bos indicus and Bos indicus x Bos taurus and Bos taurus with 6 samples.

Results

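Thyroid hormone reaches its targets in steps: membrane transporters carry it into the cell, nuclear receptors bind its active form triiodothyronine (T3), and these receptors, paired with a retinoid X receptor, regulate target genes on DNA. Blood cells meet the hormone directly in plasma, and leukocytes are known to express several of the transporters and receptors. The 9 genes described here were chosen by name from the 21698 genes of the count table. They are the transporter genes SLC16A10, SLCO4A1, SLC7A5, SLC7A8 and SLC3A2, the T3 receptor genes THRA and THRB, the receptor partner RXRA and the T3 target KLF9. All 9 had a row and at least 1 library with a count, and 8 passed the filter on low counts, SLC7A8 being the exception.

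RNA was sequenced from jugular whole blood of Kedah-Kelantan, Brangus and Holstein Friesian cows kept on 1 tropical farm and sampled under heat stress. Kedah-Kelantan is an indigenous tropical breed labelled heat-tolerant, Brangus is a composite breed labelled intermediate, and Holstein Friesian is a temperate breed labelled heat-vulnerable. The series covers Bos indicus, Bos indicus x Bos taurus and Bos taurus cattle. All were healthy adult females that were neither pregnant nor in milk, with a mean age of 4.5 ± 1.2 years, a mean weight of 450 ± 15 kg and the same temperature-humidity index of 44.68. Each breed had 2 biological replicates (n = 2 throughout), although the design text counts 4 animals per breed. Whether each library came from 1 cow is therefore not known here. P-values weigh the breed differences against the spread between these samples. Where all 6 libraries were fitted together, the 3 breeds shared 1 estimate of spread. Errors for Kedah-Kelantan versus Brangus in that fit therefore also carry the Holstein Friesian spread. No cooler or unstressed group was analysed here, so every comparison is between breeds under 1 heat load. The series title names thyroid metabolism and heat resilience of breeds, and the comparisons below ask whether the genes for hormone entry and response differed in blood.

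Total counts ranged from 25275377 to 28668857 per library. Over 9112 well-expressed genes, those with a mean log2 CPM of at least 3, 0.132% differed over 2-fold between the replicates of Kedah-Kelantan and 2% between those of Brangus. In Holstein Friesian that share was 22%, so its 2 libraries stood apart from each other, also in markers of blood cells. Markers of T cells (13 genes, 2660 to 3590 summed CPM), B cells (10 genes), monocytes (9 of 10 listed in the table) and platelets (8 genes) all had counts in whole blood. Of the erythroid list, 8 of 10 genes had counts (100 to 641 summed CPM), and HBA1 and CA1 were at 0 in all libraries. Levels are given in CPM, the count scaled to a common normalised library size. In bulk blood, fewer cells of a type and less RNA per cell cannot be told apart.

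SLCO4A1 was higher and KLF9, with the sparsely counted SLC16A10, lower in every Kedah-Kelantan and Brangus library than in both Holstein Friesian libraries. Such separation from Holstein Friesian, in either direction, was common. It was found for 30.7% of all genes tested in Kedah-Kelantan and 34.3% in Brangus. By contrast, RXRA, SLC7A5 and SLC3A2 differed more between the 2 Holstein Friesian libraries than between Kedah-Kelantan and Brangus. No member passed the edgeR quasi-likelihood test in any comparison. In Kedah-Kelantan versus Holstein Friesian 0 of 8 tested members passed, where 0.00743% of all genes did (0.00613% with no low-count filter). Of the 8, SLCO4A1 alone had an unadjusted p under 0.05, and DESeq2, which called 0.974% of all genes, called none. In Brangus versus Holstein Friesian 0 of 8 passed, where again 0.00743% of all genes did (0.00613% with no low-count filter). There SLCO4A1 and KLF9 had an unadjusted p under 0.05, and DESeq2, which called 2.29% of all genes, called KLF9. In Kedah-Kelantan versus Brangus 0 of 8 passed, where 0% of all genes did (1564 of 13455 genes had an unadjusted p under 0.05), no member had an unadjusted p under 0.05, and DESeq2 called 4.93% of all genes and no member. For a difference among any of the 3 breeds edgeR called 0% of all genes (0.00613% with no low-count filter, and 1107 genes at an unadjusted p under 0.05) and no member. In that test SLCO4A1 (edgeR adjusted p = 0.582) and KLF9 (0.567) had an unadjusted p under 0.05, and DESeq2 called 4.65% of all genes and KLF9 (adjusted p = 0.0329). The first 2 comparisons share the Holstein Friesian libraries, so their values are not independent of each other.

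**Figure D1:**
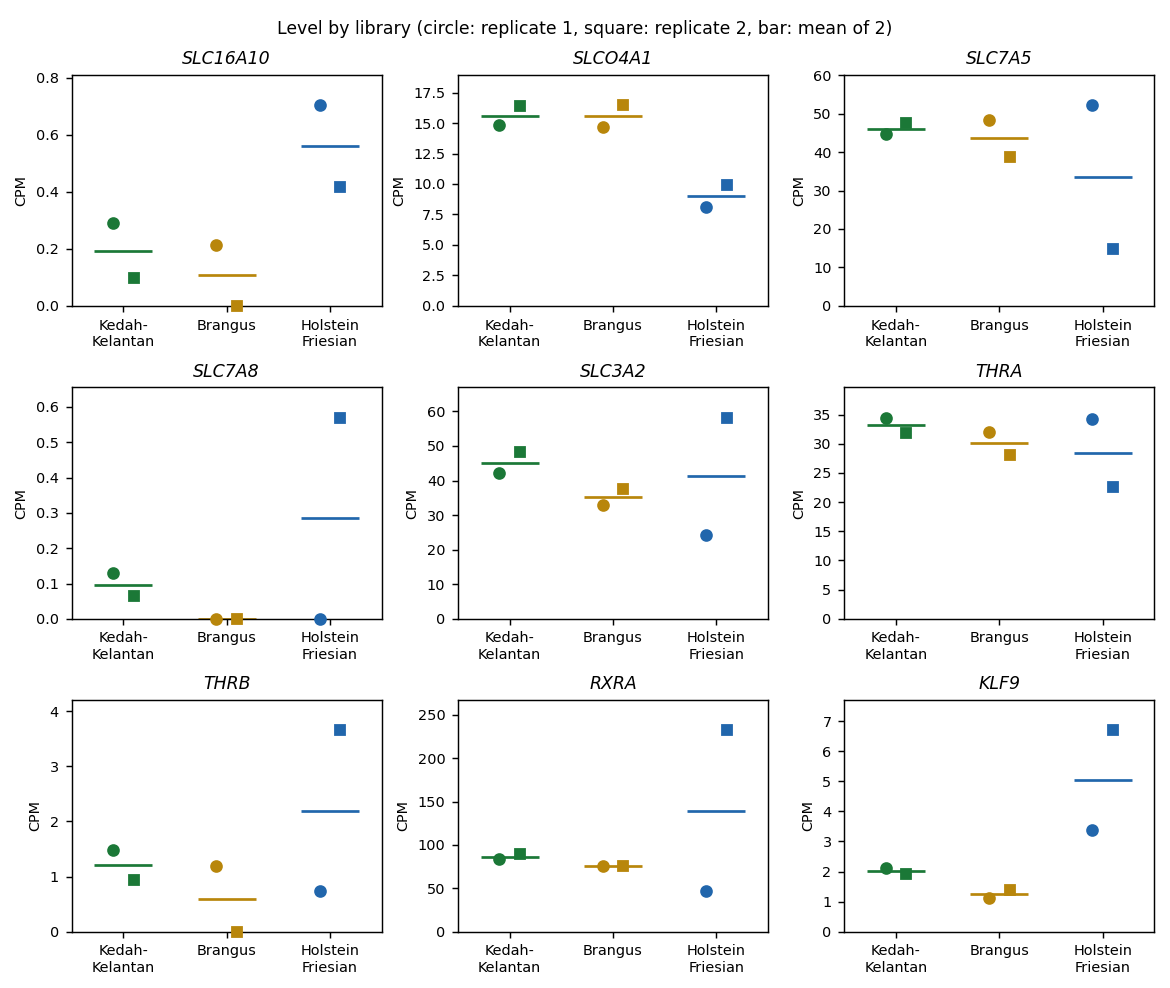
Level of each gene in CPM (vertical axes from 0) in every library of Kedah-Kelantan, Brangus and Holstein Friesian, with replicate 1 as a circle, replicate 2 as a square and the mean of the 2 as a bar. SLCO4A1 lies at 14.7 to 16.5 CPM in the first 2 breeds and at 8.12 and 9.92 in Holstein Friesian, while RXRA spans 46.7 to 232 within Holstein Friesian.

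Among the transporters, SLCO4A1 had the steadiest breed values. SLCO4A1 (chromosome 13, 54671705 to 54703379, minus strand) encodes OATP4A1, an organic anion transporter that carries T3 and thyroxine. It had 14.8 and 16.4 CPM in Kedah-Kelantan cows, 14.7 and 16.5 CPM in Brangus cows, and 8.12 and 9.92 CPM in Holstein Friesian cows. Both libraries of each of the first 2 breeds lay above both Holstein Friesian libraries, and Kedah-Kelantan and Brangus overlapped fully. The mean was 15.6 ± 1.09 CPM (SD, n = 2) in Kedah-Kelantan cows, 15.6 ± 1.28 in Brangus cows, and 9.02 ± 1.27 in Holstein Friesian cows. Its log2 fold change was 0.79 (SE 0.24, unadjusted p = 0.0202, edgeR adjusted p = 0.995) for Kedah-Kelantan versus Holstein Friesian. For Brangus versus Holstein Friesian it was also 0.79 (SE 0.24, edgeR adjusted p = 0.645), and for Kedah-Kelantan versus Brangus it was 0.00 (SE 0.24). The difference was larger than the spread between replicates, yet it did not pass over 13455 genes. It kept its sign without either Holstein Friesian library, at 0.65 without replicate 1 and 0.90 without replicate 2 for Kedah-Kelantan, and at 0.65 and 0.91 for Brangus. SLCO4A1 was the 1 member of 8 higher in both Kedah-Kelantan libraries and the 1 higher in both Brangus libraries than in both of Holstein Friesian, and such genes were common. Of all genes, 18.1% were so in Kedah-Kelantan and 18.4% in Brangus.

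SLC7A5 and SLC3A2 encode the 2 chains of 1 transporter. SLC7A5 (chromosome 18, 13298159 to 13326788, minus strand) encodes LAT1, the light chain that moves large neutral amino acids and iodothyronines. SLC3A2 (chromosome 29, 41158503 to 41199498, plus strand) encodes CD98, the heavy chain that brings LAT1 and related light chains to the cell surface. SLC7A5 had 44.7 and 47.5 CPM in Kedah-Kelantan cows, 48.4 and 38.8 CPM in Brangus cows, and 52.3 and 14.7 CPM in Holstein Friesian cows, replicate 1 first. The second Holstein Friesian library was low and the first was the highest of all 6, so Holstein Friesian spanned both other breeds. SLC3A2 had 42.2 and 48.2 CPM in Kedah-Kelantan cows, 32.8 and 37.5 CPM in Brangus cows, and 24.2 and 58.2 CPM in Holstein Friesian cows. Here the Holstein Friesian libraries were again the outermost, with their order turned round.

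The fold changes of both chains followed which Holstein Friesian library was in the fit. SLC7A5 had a log2 fold change of 0.46 (SE 0.58) for Kedah-Kelantan versus Holstein Friesian, 0.38 (SE 0.58) for Brangus versus Holstein Friesian and 0.08 (SE 0.58) for Kedah-Kelantan versus Brangus. Without Holstein Friesian replicate 1 the first 2 were 1.65 (edgeR adjusted p = 0.00145) and 1.56 (adjusted p = 0.00106), in fits that called 17.5% and 31.3% of all genes. Without replicate 2 they were -0.22 and -0.30 and did not pass. SLC3A2 was at 0.14 (SE 0.42), -0.23 (SE 0.42) and 0.36 (SE 0.42) for the same 3 comparisons. Without replicate 1 its values against Holstein Friesian were -0.36 for Kedah-Kelantan and -0.73 (adjusted p = 0.0143) for Brangus, and without replicate 2 they were 0.86 (adjusted p = 0.0268) and 0.50. In each such fit the single remaining Holstein Friesian library is assumed to vary like the other breeds.

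The balance of the 2 chains can be read per length from FPKM, the authors' count scaled for gene length and library size. The SLC7A5 level was 0.576 and 0.536 times the SLC3A2 level in Kedah-Kelantan cows, 0.803 and 0.56 times in Brangus cows, and 1.18 and 0.137 times in Holstein Friesian cows. Holstein Friesian replicate 1 was the only library with more light chain than heavy chain FPKM, and replicate 2 had the lowest ratio. SLC3A2 also serves other light chains, of which SLC7A6, SLC7A7 and SLC7A11 were expressed enough to test beside SLC7A5. None of these 4, and none of any list below, was called by edgeR in any comparison with all 6 libraries. The median log2 fold change was 0.23, -0.30 and 0.32 in the 3 comparisons, against -0.03, -0.03 and 0.02 over all genes tested. With Holstein Friesian replicate 1 left out the first median turned to -0.36, and with replicate 2 left out it was 0.37. SLC7A11, the cystine carrier xCT, had the smallest p, with 10.2 and 9.13 CPM in Kedah-Kelantan cows, 0.814 and 0.687 CPM in Brangus cows, and 0.772 and 16.5 CPM in Holstein Friesian cows. Its log2 fold change was 3.68 (SE 1.4, edgeR adjusted p = 0.422) for Kedah-Kelantan versus Brangus. Like SLC3A2 it was high in Holstein Friesian replicate 2 and low in replicate 1. Markers of eosinophils, basophils and mast cells (7 of 12 listed in the table) were likewise higher in Kedah-Kelantan than in Brangus and in Holstein Friesian replicate 2 than in replicate 1, at 268 and 278 summed CPM in Kedah-Kelantan cows, 41.4 and 37.0 in Brangus cows, and 34.6 and 689 in Holstein Friesian cows, and their part in the SLC7A11 values was not tested.

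SLC7A8 and SLC16A10 were at the edge of detection. SLC7A8 (chromosome 10, 21684152 to 21737239, plus strand), the light chain LAT2, had 4 and 2 counts in Kedah-Kelantan cows, 0 and 0 in Brangus cows, and 0 and 15 in Holstein Friesian cows. The 15 counts have an exact 95% Poisson interval of 8.4 to 24.7, whereas that of 0 counts in the other Holstein Friesian library ends at 3.69. The interval of the 15 counts overlapped the one of Kedah-Kelantan replicate 1 (1.09 to 10.2). It lay above the one of Kedah-Kelantan replicate 2 (0.242 to 7.22). SLC16A10 (chromosome 9, 39168422 to 39280816, minus strand), which encodes the aromatic amino acid transporter MCT10 and also moves T3, had 9 and 3 counts in Kedah-Kelantan cows, 5 and 0 in Brangus cows, and 21 and 11 in Holstein Friesian cows. Holstein Friesian was highest, but the interval of its replicate 2 (5.49 to 19.7) overlapped that of Kedah-Kelantan replicate 1 (4.12 to 17.1). The log2 fold change of SLC16A10 was -1.52 (SE 1.54) for Kedah-Kelantan and -2.34 (SE 1.64) for Brangus versus Holstein Friesian, and 0.83 (SE 1.64) for Kedah-Kelantan versus Brangus. The floor of 3 counts set for a count of 0 corresponds to 0.129 CPM in Brangus replicate 2.

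**Figure D2:**
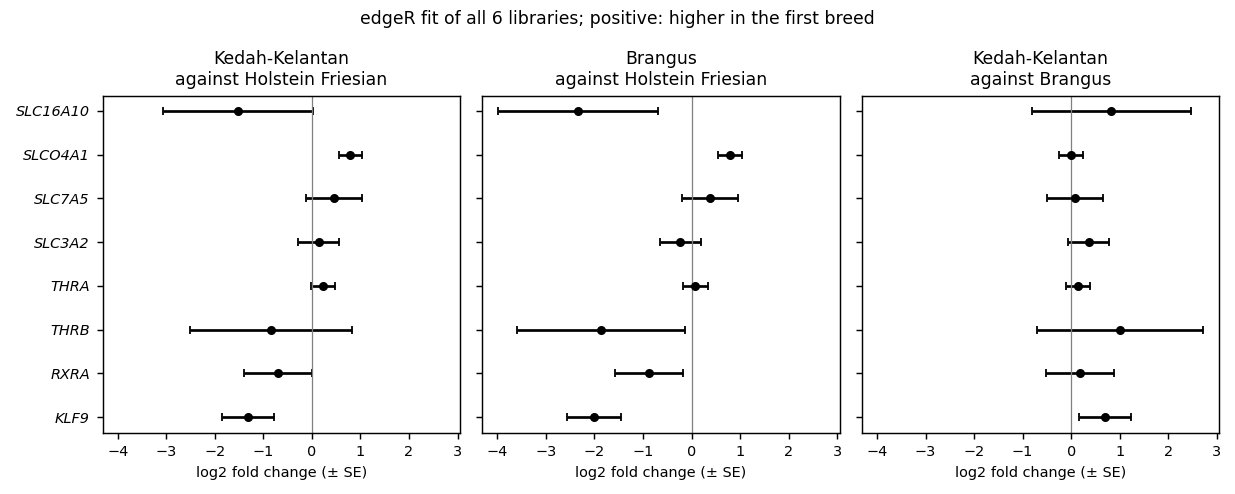
Log2 fold change (horizontal axis) with its standard error for the 8 tested genes in the edgeR fit of all 6 libraries, 1 panel per comparison, positive values being higher in the first breed named. SLCO4A1 stands at 0.79 in both panels against Holstein Friesian, and KLF9 at -1.32 and -2.01, with no adjusted p under 0.05.

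Of 9 other genes for thyroid hormone transporters, 4 could be tested and edgeR called none. SLCO1C1, SLC10A1 and SLC17A4 had no count in any library, while SLCO1A2 and SLCO1B3 reached 0.0644 and 0.0322 CPM in Kedah-Kelantan replicate 1, below the level of 3 counts. The gene with the smallest p was SLCO2B1, at 1.80 and 2.08 CPM in Kedah-Kelantan cows, 0.899 and 0 CPM in Brangus cows, and 0.503 and 1.22 CPM in Holstein Friesian cows (2.10, SE 1.61, edgeR adjusted p = 0.65 for Kedah-Kelantan versus Brangus). SLCO4C1, another organic anion transporter, had 7.47 and 6.17 CPM in Kedah-Kelantan cows, 3.30 and 4.08 CPM in Brangus cows, and 0.503 and 17.3 CPM in Holstein Friesian cows. The list's median was 0.34, -0.69 and 0.77 in the 3 comparisons. Against Holstein Friesian, Kedah-Kelantan had 1 higher and 3 lower without Holstein Friesian replicate 1, and 4 higher and 0 lower without replicate 2. Fits of the lists without single libraries were added after seeing the data.

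Carriers of the hormone were nearly silent in blood. TTR, SERPINA7 and ALB, whose products bind thyroid hormone in plasma and are made mainly by the liver, had 0 counts in all 6 libraries. CRYM, a cytosolic T3-binding protein, had 0.161 and 0.0975 CPM in Kedah-Kelantan cows, 0.343 and 1.42 CPM in Brangus cows, and 0.101 and 0.076 CPM in Holstein Friesian cows, and was not tested. Of the 3 deiodinase genes, which activate or inactivate the hormone, 1 could be tested, and edgeR did not call it. DIO2, which activates the hormone, had 4 and 11 counts in Kedah-Kelantan cows, 0 and 9 in Brangus cows, and 10 and 138 in Holstein Friesian cows, so that 1 library stood above the other 5. Its log2 difference was -3.50 (SE 1.91) for Kedah-Kelantan and -3.82 (SE 1.96) for Brangus relative to Holstein Friesian. DIO1 and DIO3 had no count in any library.

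THRA had more counts than THRB in every library and its breed values overlapped. THRA (chromosome 19, 40365895 to 40390931, plus strand) encodes T3 receptor alpha and had 34.5 and 31.9 CPM in Kedah-Kelantan cows, 32.1 and 28.1 CPM in Brangus cows, and 34.2 and 22.6 CPM in Holstein Friesian cows. The breeds overlapped, apart from the low Holstein Friesian replicate 2. Its log2 fold change was 0.23 (SE 0.25) for Kedah-Kelantan versus Holstein Friesian, 0.08 (SE 0.25) for Brangus versus Holstein Friesian and 0.14 (SE 0.25) for Kedah-Kelantan versus Brangus. THRB (chromosome 27, 41460164 to 41898594, plus strand), for T3 receptor beta, had 46 and 29 counts in Kedah-Kelantan cows, 28 and 0 in Brangus cows, and 22 and 96 in Holstein Friesian cows. It was highest in Holstein Friesian replicate 2 and had no count in Brangus replicate 2. Its log2 fold changes had wide errors, at -0.85 (SE 1.67) and -1.86 (SE 1.73) for Kedah-Kelantan and Brangus over Holstein Friesian and 1.01 (SE 1.71) for Kedah-Kelantan over Brangus. Without Brangus replicate 2 the Brangus value over Holstein Friesian was -0.91 and the Kedah-Kelantan value over Brangus 0.02, and without Brangus replicate 1 the fit is against 0 counts and measures no fold. Per length, THRA stood at 5.97 and 5.42 FPKM in Kedah-Kelantan cows, 4.62 and 3.99 in Brangus cows, and 5.53 and 3.29 in Holstein Friesian cows, and THRB at no more than 0.10 FPKM in any library. The FPKM of THRB rests on a length of 32534 to 35958 bases implied by the authors' values, against 6422 to 6430 for THRA, and a long gene model lowers FPKM. The 2 messages of THRA that differ at the 3′ end, of which only 1 encodes a T3-binding receptor, are counted together.

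Reads of THRA may include reads of neighbours on the other strand, since the strand setting of the counting is not given in the sources used here. In the deposited positions THRA overlaps NR1D1, a clock repressor gene, by 1101 bases and MED24, a Mediator subunit gene, by 12462 bases. NR1D1 had 3.60 and 8.97 CPM in Kedah-Kelantan cows, 5.48 and 3.69 CPM in Brangus cows, and 2.15 and 11.7 CPM in Holstein Friesian cows. MED24 had 27.0 and 26.5 CPM in Kedah-Kelantan cows, 19.3 and 19.1 CPM in Brangus cows, and 26.0 and 22.1 CPM in Holstein Friesian cows. NR1D1 was highest in the library where THRA was lowest. MED24, with the longer overlap, was lower in replicate 2 than in replicate 1 of Holstein Friesian, as THRA was. Its replicates were nearly equal in the other breeds. How many reads the genes share was not tested.

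RXRA had the widest range of the well-expressed members. RXRA (chromosome 11, 105021618 to 105114880, plus strand) encodes retinoid X receptor alpha, the partner of the T3 receptors and of many other nuclear receptors. It had 84.2 and 89.0 CPM in Kedah-Kelantan cows, 75.7 and 75.6 CPM in Brangus cows, and 46.7 and 232 CPM in Holstein Friesian cows. The 2 Holstein Friesian libraries were the lowest and the highest of all 6, and the replicates of the other breeds were nearly equal. Its mean was 86.6 ± 3.44 CPM (SD, n = 2) in Kedah-Kelantan cows, 75.6 ± 0.0936 in Brangus cows, and 139 ± 131 in Holstein Friesian cows. The log2 fold change was -0.69 (SE 0.70) for Kedah-Kelantan versus Holstein Friesian, -0.88 (SE 0.70) for Brangus versus Holstein Friesian and 0.19 (SE 0.70) for Kedah-Kelantan versus Brangus.

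RXRA passed in both directions, depending on the Holstein Friesian library kept. Without replicate 1 it was -1.42 (edgeR adjusted p = 0.00038) for Kedah-Kelantan and -1.62 (adjusted p = 0.000111) for Brangus. Without replicate 2 it was 0.85 (adjusted p = 0.00749) and 0.66 (adjusted p = 0.0318), in fits that called 11.9% and 6.06% of all genes. Such opposite calls were seen for 4.85% of 13905 genes tested in both fits for Kedah-Kelantan and 2.94% for Brangus. Of the 8 members, 5 changed sign between these fits for Kedah-Kelantan, namely SLC7A5, SLC3A2, THRA, THRB and RXRA, where 56.5% of all genes did. For Brangus 4 changed sign (SLC7A5, SLC3A2, THRA and RXRA), where 47.1% of all genes did.

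**Figure D3:**
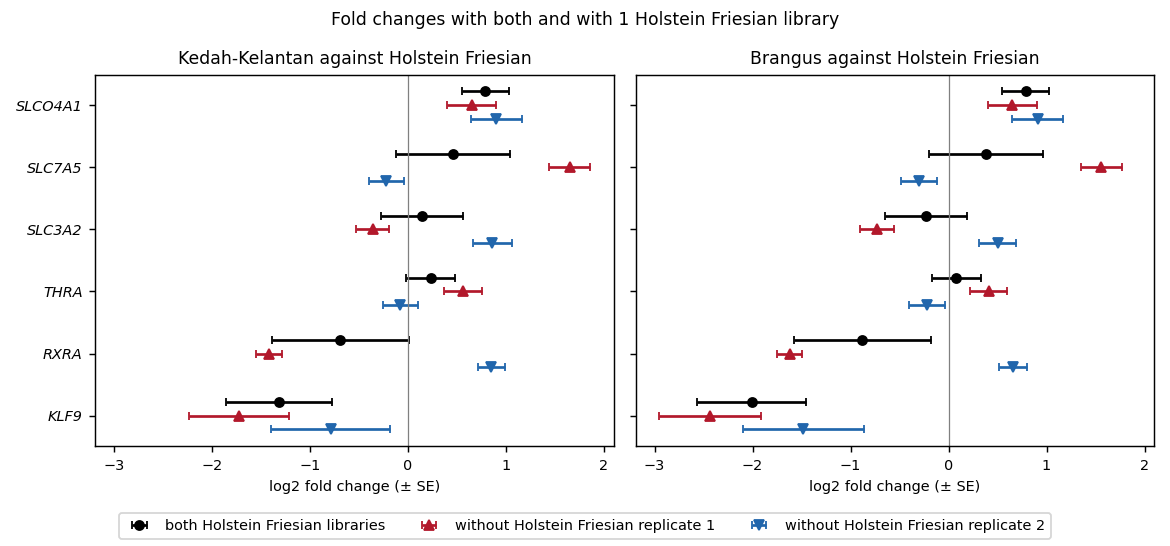
Log2 fold change (horizontal axis) with its standard error for 6 genes, with both Holstein Friesian libraries (circles), without replicate 1 (upward triangles) and without replicate 2 (downward triangles), for Kedah-Kelantan (left) and Brangus (right) against Holstein Friesian. RXRA moves between -1.42 and 0.85 and between -1.62 and 0.66, while SLCO4A1 and KLF9 stay on 1 side of 0.

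Blood cell markers moved with RXRA, SLC7A5 and SLC3A2 in Holstein Friesian. In replicate 2 the neutrophil list summed to 5940 CPM, against 602 in replicate 1, and the monocyte list to 7010 CPM, against 426. The B cell list was lower in replicate 2, at 322 CPM against 3860. So were the gamma delta T cell list (5 of 6 listed in the table), at 41.1 against 226, and the NK cell list, at 250 against 493. In Kedah-Kelantan the neutrophil sum was 1650 and 1770, the monocyte sum 1340 and 1530 and the B cell sum 2430 and 2570 CPM. In Brangus these sums were 2120 and 3270, 1080 and 1090, and 3840 and 3220 CPM. Across the 6 libraries RXRA and SLC3A2 were thus highest where the monocyte sum was highest. SLC7A5 was lowest where the B cell and gamma delta T cell sums were lowest. Of the neutrophil list 11 of 12 genes had counts, MMP8 being at 0, and the part of these cells in the RXRA, SLC7A5 and SLC3A2 values was not tested.

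**Figure D4:**
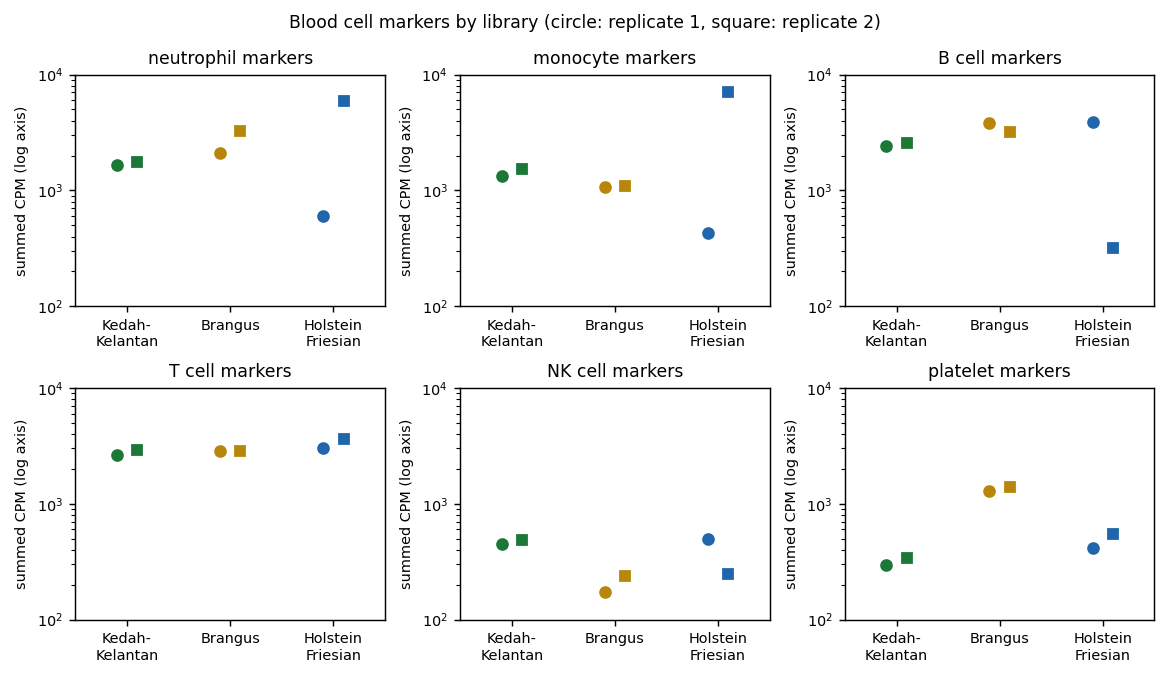
Summed CPM (log axis) of 6 lists of blood cell markers in every library of Kedah-Kelantan, Brangus and Holstein Friesian, with replicate 1 as a circle and replicate 2 as a square. The monocyte sum is 426 and 7010 CPM in the 2 Holstein Friesian libraries, and the T cell sum stays at 2660 to 3590 CPM in all 6.

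The genes most like the members over the 6 libraries were drawn from 9112 genes by Pearson's r of log2 CPM, as a description of 6 points. For RXRA they were LYZ (lysozyme, on the monocyte list, r = 0.999), RARA (retinoic acid receptor alpha, r = 0.9989) and TNFRSF1B (a TNF receptor, r = 0.9968). For SLC7A5 they were CRIP3, IFT52 and TRMT6 (r = 0.9971 to 0.999), and 26 genes had r over 0.99. For SLC3A2 they were KIAA1191, SSH3 and ZFP36 (r = 0.9885 to 0.9933), and for THRA they were SH3TC1, USP37 and RAD17 (r = 0.9942 to 0.9966). SLCO4A1 was most like INSIG1 (r = 0.9805), a sterol-responsive gene, LOC539009 and TPPP. KLF9 was most like HOMER1, LOC101904063 (described as integrin alpha-X) and FRMD4B (r = 0.9944 to 0.9981). Among the members themselves RXRA ran opposite to SLC7A5 (r = -0.93) and THRA ran with SLC7A5 (r = 0.94). All these values share the libraries and lean on the wide Holstein Friesian pair.

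The RXR genes, RXRA included, and the nuclear receptors that pair with RXR mostly shared the sign of RXRA. Of 15 listed genes 13 were tested, and edgeR called none in any comparison. In Kedah-Kelantan versus Holstein Friesian 2 were higher and 11 lower (median log2 fold change -0.33), and in Brangus versus Holstein Friesian 1 was higher and 12 lower (median -0.66). Without Holstein Friesian replicate 2 these medians were 0.31 and 0.47, so the direction rested on that library. Without Holstein Friesian replicate 1 edgeR called 7 of the 13 lower in Kedah-Kelantan, where 1509 of 14041 genes were, and 7 lower and 1 higher in Brangus, where 2356 were lower and 2039 higher. Without replicate 2 it called 4 higher in Kedah-Kelantan, where 919 of 14015 genes were, and 2 higher in Brangus, where 611 were. The smallest p belonged to RARB, a retinoic acid receptor gene, at 10.8 and 10.3 CPM in Kedah-Kelantan cows, 5.10 and 3.87 CPM in Brangus cows, and 8.22 and 13.9 CPM in Holstein Friesian cows. Both Brangus libraries were lowest, with log2 differences of -1.30 (SE 0.37, edgeR adjusted p = 0.645) for Brangus versus Holstein Friesian and 1.23 (SE 0.37, edgeR adjusted p = 0.368) for Kedah-Kelantan versus Brangus. RXRB had 66.9 and 74.9 CPM in Kedah-Kelantan cows, 90.5 and 73.6 CPM in Brangus cows, and 78.8 and 50.3 CPM in Holstein Friesian cows, and RXRG had no count in any library.

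KLF9 had lower values in both other breeds than in Holstein Friesian, short of the edgeR threshold. KLF9 (chromosome 8, 46512457 to 46611498, minus strand) encodes a zinc finger transcription factor that T3 and glucocorticoids are known to induce in other tissues. It had 2.12 and 1.92 CPM in Kedah-Kelantan cows, 1.11 and 1.37 CPM in Brangus cows, and 3.39 and 6.69 CPM in Holstein Friesian cows, from 66 and 59, 26 and 32, and 101 and 176 counts. The 3 breeds did not overlap, and Brangus was lowest. Its mean was 2.02 ± 0.146 CPM (SD, n = 2) in Kedah-Kelantan cows, 1.24 ± 0.185 in Brangus cows, and 5.04 ± 2.33 in Holstein Friesian cows. The log2 fold change was -1.32 (SE 0.54, unadjusted p = 0.0552, edgeR adjusted p = 0.995) for Kedah-Kelantan and -2.01 (SE 0.56, unadjusted p = 0.0132, edgeR adjusted p = 0.645) for Brangus versus Holstein Friesian. For Kedah-Kelantan versus Brangus it was 0.70 (SE 0.54, edgeR adjusted p = 0.655). KLF9 and SLC16A10 were the 2 of 8 members lower in both libraries of either breed than in both of Holstein Friesian, where 12.6% of all genes were in Kedah-Kelantan and 15.9% in Brangus. Higher values in both Kedah-Kelantan than in both Brangus libraries, as for KLF9, were found for 33.5% of all genes. The monocyte sum rose with KLF9 between the Holstein Friesian replicates (426 and 7010 CPM), but replicate 1 had the lowest sum of all 6 libraries. All 5 gamma delta T cell markers tested were lower in both other breeds than in Holstein Friesian (medians -1.25 and -0.56). Their sum fell between the Holstein Friesian replicates (226 and 41.1 CPM). The part of these cells in the KLF9 values was not tested.

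For Brangus versus Holstein Friesian KLF9 was called by DESeq2 (-2.05, adjusted p = 0.0275), which called 2.29% of all genes there. In edgeR KLF9 was at -2.43 without Holstein Friesian replicate 1, a fit that leaves 1 Holstein Friesian library. Without replicate 2 it was -1.48 (edgeR adjusted p = 0.229), and over all alternatives the adjusted p ran between 0.00928 and 0.967. Kedah-Kelantan versus Holstein Friesian was at -1.72 (edgeR adjusted p = 0.0532) without replicate 1 and -0.79 without replicate 2. KLF9 overlaps SMC5, a gene of chromosome maintenance on the other strand, by 16958 bases. SMC5 had 95.5 and 87.7 CPM in Kedah-Kelantan cows, 100 and 95.1 CPM in Brangus cows, and 128 and 58.9 CPM in Holstein Friesian cows. SMC5 was lowest in the library where KLF9 was highest, and the sharing of reads was not tested. Per length, the order of KLF9 and SLCO4A1 differed between breeds. KLF9 had 0.99 and 0.88 FPKM in Kedah-Kelantan cows, 0.43 and 0.53 in Brangus cows, and 1.48 and 2.63 in Holstein Friesian cows. SLCO4A1 had 1.00 and 1.08, 0.82 and 0.91, and 0.51 and 0.56 FPKM in these breeds, so KLF9 was above SLCO4A1 in both Holstein Friesian libraries and below it in the other 4. This order rests on an implied length of 16585 bases for SLCO4A1 against 2380 for KLF9, and in CPM SLCO4A1 was above KLF9 in all 6 libraries.

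Other genes known to respond to T3 in other tissues held no call by edgeR with all 6 libraries in the fit. Of 17 listed genes, KLF9 among them, 12 were tested. EdgeR called none in that fit, while DESeq2 called KLF9 as given above. In Kedah-Kelantan versus Holstein Friesian 4 were higher and 8 lower (median -0.46), in Brangus versus Holstein Friesian 3 were higher and 9 lower (median -0.92), and in Kedah-Kelantan versus Brangus 8 were higher and 4 lower (median 0.48). Without Holstein Friesian replicate 2 the first 2 medians were 0.19 and -0.03, and without replicate 1 they were -0.92 and -1.36. NRGN, which encodes neurogranin and had the smallest p, had 10.7 and 12.7 CPM in Kedah-Kelantan cows, 27.9 and 34.4 CPM in Brangus cows, and 11.5 and 4.60 CPM in Holstein Friesian cows. Its log2 fold change was 1.95 (SE 0.47, edgeR adjusted p = 0.641) for Brangus versus Holstein Friesian and -1.41 (SE 0.46, edgeR adjusted p = 0.388) for Kedah-Kelantan versus Brangus. Platelet markers were also highest in Brangus, at 294 and 340 summed CPM in Kedah-Kelantan cows, 1280 and 1390 in Brangus cows, and 417 and 545 in Holstein Friesian cows, and their part in the NRGN values was not tested. THRSP, a classic T3 target of liver and fat, had no count in any library.

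The Kruppel-like factor genes, KLF9 included, and the amino acid response genes related to SLC7A5 and SLC3A2 also held no call by edgeR with all 6 libraries. DESeq2 called KLF9. All 7 Kruppel-like factor genes were tested. Against Holstein Friesian 1 was higher and 6 lower in Kedah-Kelantan (median -0.34) and 7 were lower in Brangus (median -0.59). Without Holstein Friesian replicate 2 these medians were 0.05 and -0.31, and without replicate 1 they were -0.69 and -1.07. KLF10, a TGF-beta induced factor gene, had 40.7 and 46.8 CPM in Kedah-Kelantan cows, 62.7 and 75.1 CPM in Brangus cows, and 83.2 and 60.1 CPM in Holstein Friesian cows (-0.71, SE 0.23, edgeR adjusted p = 0.995 for Kedah-Kelantan versus Holstein Friesian). Of 9 amino acid response genes 8 were tested, with medians of -0.07, 0.06 and -0.07 in the 3 comparisons. ATF4, the factor known to drive transcription of SLC7A5 and SLC3A2 under amino acid shortage, had 335 and 353 CPM in Kedah-Kelantan cows, 499 and 559 CPM in Brangus cows, and 360 and 362 CPM in Holstein Friesian cows. Brangus was highest in both libraries. The log2 fold change of ATF4 was 0.55 (SE 0.16, edgeR adjusted p = 0.645) for Brangus versus Holstein Friesian and -0.62 (SE 0.17, edgeR adjusted p = 0.353) for Kedah-Kelantan versus Brangus.

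Kedah-Kelantan and Brangus were the breeds with close replicates, and no member was called between them. Of the 8 tested members 7 had a positive fold change in Kedah-Kelantan, with a median log2 fold change of 0.28 against 0.02 over all genes. SLC16A10 and THRB had 0 counts in Brangus replicate 2. Without that library 6 members were positive and 2 negative, with a median of 0.07 against 0.03 over all genes. Cell markers also differed between these breeds, with the NK cell list (8 of 9 genes with counts, CD160 at 0) at 448 and 488 summed CPM in Kedah-Kelantan and 175 and 238 in Brangus. The median log2 fold change of the 8 tested NK cell markers was 1.54, that of 7 platelet markers -1.95 and that of 6 eosinophil, basophil and mast cell markers 2.77. EdgeR called none of these, and their part in the members' values was not tested. SLC3A2, RXRA and KLF9 were higher in both Kedah-Kelantan libraries than in both Brangus libraries, where 33.5% of all genes were. With these 2 breeds alone in the fit edgeR called 19.3% of all genes and 0 of the 7 members then tested, SLC16A10 having too few counts. The nearest to a call was SLC3A2, at 0.37 (SE 0.15, unadjusted p = 0.0379, edgeR adjusted p = 0.121), followed by RXRA at 0.20 (SE 0.11, adjusted p = 0.239). SLCO4A1 was at 0.00 (SE 0.19) and SLC7A5 at 0.09 (SE 0.15) in that fit. A p that misses the threshold does not show that the breeds were alike in these genes.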

How the data were processed

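Whole-blood RNA was sequenced in 6 libraries, 2 per breed. Upstream tools, per the submitters' processing notes, were HISAT2 (version 2.2.1), featureCounts (2.0.1), Trimmomatic (0.39), FastQC (0.11.9) and DESeq2 (1.38.0), and the build was ARS-UCD1.2. The sources used here give neither their roles nor the strand setting. Only 1 build is given for the Bos indicus, crossed and Bos taurus cattle. How well the reads of each breed matched it was not tested. The authors deposited raw read counts per gene and, per the file headers, FPKM values. Positions are as deposited, and chromosomes were named from gene symbols shared with a RefSeq table of the assembly NIAB-ARS_B.indTharparkar_mat_pri_1.0, whose coordinates were not used.

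The main test was edgeR 4.0.16 in R 4.3.3 (TMM, filterByExpr, robust quasi-likelihood fit of all 6 libraries by breed), tested first on simulated data. Benjamini-Hochberg adjustment ran over 13455 genes, and genes were called at an adjusted p under 0.05. SE is the log2 fold change over the square root of F. Levels are CPM of TMM-scaled libraries. Alternatives were RLE size factors, no low-count filter, DESeq2 1.42.0, only 2 breeds in the fit, limma 3.58.1 on log2(FPKM + 0.1), no haemoglobin genes, a replicate block and each library left out. The floor of a count of 0 is 3 counts, and 95% Poisson intervals cover counting error only. Replicates are labelled biological and differed by more than sampling noise. The members, lists and tests were chosen with earlier results of these data known. Named were all members, the 1 or 2 genes of each list with the smallest p, the 3 genes most like each of 6 members and NR1D1, and the other genes named (MED24, SMC5, RXRB and genes at or near 0) were chosen after their values were seen. The values of 1 listed transporter gene are not reported here.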

Additional observations from a re-analysis of the deposited data

How the results depend on the processing

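With all 6 libraries, 1, 1 and 0 genes were called for Kedah-Kelantan versus Holstein Friesian, Brangus versus Holstein Friesian and Kedah-Kelantan versus Brangus, and 0 for any breed difference. DESeq2 called 131, 308, 664 and 625. With only the 2 breeds in the fit the first 3 were 0, 0 and 2537. RLE size factors gave 0 for Brangus versus Holstein Friesian, and both no low-count filter and limma on FPKM gave 1 for any breed difference. Leaving out 1 library gave 0 to 2464, 0 to 4395, 0 to 2458 and 0 to 4783, with the high values all from fits without a Holstein Friesian library. Replicate numbers did not pair the samples (r of replicate differences 0.00 to 0.05 between breeds), and with a replicate block the first 3 counts were 0, 0 and 0 and no member was called. Under the alternatives that keep all libraries of the breeds compared, the members kept their sign where tested, except SLCO4A1 for Kedah-Kelantan versus Brangus, which lay near 0 (-0.01 with RLE size factors, 0.24 with limma). DESeq2 added calls of KLF9 for Brangus versus Holstein Friesian and for any breed difference. The other signs turned where a library was left out, and the cause was not tested. For Kedah-Kelantan versus Holstein Friesian, leaving out 1 library gave -0.36 (without Holstein Friesian replicate 1) to 0.86 for SLC3A2. Leaving out Holstein Friesian replicate 2 turned the sign of SLC7A5 (-0.22 to 1.65 over all libraries left out), THRA (-0.08 to 0.56), THRB (-1.59 to 0.67) and RXRA (-1.42 to 0.85). For Brangus versus Holstein Friesian, the same library turned SLC7A5 (-0.30 to 1.56), SLC3A2 (-0.73 to 0.50), THRA (-0.22 to 0.41) and RXRA (-1.62 to 0.66), and THRA was -0.05 without Brangus replicate 1. For Kedah-Kelantan versus Brangus, SLC7A5 ran between -0.07 (without Brangus replicate 2) and 0.24. SLC16A10 fitted at -0.12 (Kedah-Kelantan replicate 1 left out) and -0.14 (Brangus replicate 2 left out), and its 5.46 without Brangus replicate 1 is a fit against 0 counts, which measures no fold. Leaving out 1 library gave THRB values of -8.98 to -0.34 for Brangus versus Holstein Friesian and 0.02 to 8.08 for Kedah-Kelantan versus Brangus, where -8.98 and 8.08 are again fits against 0 counts in Brangus. Precision was limited by n = 2 at a biological coefficient of variation of 0.43, and SLC7A8, SLC16A10 and THRB had few counts.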
